A study of Drosophila melanogaster and Drosophila mauritiana and Drosophila melanogaster x Drosophila mauritiana with 7 samples.

Results

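The gene vasa (vas, FBgn0283442, locus tag Dmel_CG46283) was examined in all 7 testis libraries. It is a protein-coding gene of Drosophila melanogaster at chr2L:15061656-15074311 on build dm6. It was chosen by name and is 1 of 239 features measured in the deposited tables, beside 212 transposon repeats and 26 copies of the vasa-related repeats (VRr) of the X chromosome. Its values are read counts on the vasa exons of D. melanogaster and D. mauritiana, by strand and by the other places a read matches, in 6 libraries, and a vasa column in the table of y w small RNAs.

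All RNA came from dissected testes of adults aged 0 to 5 days. The 4 small RNA libraries were of D. melanogaster y w (strain label Df(1)w67c23(2)y), of D. melanogaster Hmr1 (label P{}Hmr1, a mutation in Hybrid male rescue, a gene of hybrid incompatibility), of wild-type D. mauritiana, and of F1 hybrids between Hmr1 and that D. mauritiana stock. RNA-seq depleted of ribosomal RNA and strand-specific covered Hmr1, D. mauritiana and the hybrid. The labels do not say which species was the mother of the hybrids or how many flies were pooled. Each group held 1 library, so there was no replicate check and no test, and every interval is an exact 95% interval that covers counting error only. Of the genes that mark testis cell types, vasa itself was the one measured in the tables used here, so the tissue was not checked further. Library totals were not used here. An alternative scale for the small RNA counts was the number of reads in the transposon table, which was 441146 for Hmr1, 175982 for the hybrid and 133204 for D. mauritiana. Transposon small RNAs can themselves differ between genotypes. Whether this number follows sequencing depth was not tested, so ratios per transposon read are not depth-corrected levels.

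Vasa is a DEAD-box RNA helicase of the germline, found in the perinuclear nuage, and a standard marker of germ cells. It takes part in the ping-pong cycle, in which the Piwi proteins Aubergine and Argonaute3 cut transposon transcripts with piRNAs as guides. A piRNA guides such cutting through complementarity, so a small RNA antisense to an mRNA is of the kind that can target it, whereas sense small RNAs can also be fragments of the mRNA. The study asked whether small RNAs of the D. melanogaster repeats match vasa of either species, and which vasa transcripts hybrid testes hold.

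Among the repeat small RNAs of y w, none of 23 to 30 nt and few shorter ones were marked as matching vasa. The heading of these marks does not name the species of vasa. Among reads of 23 to 30 nt, 0 of 114659 were marked as matching vasa. Taking 3 reads as a working limit for a count of 0, the share could be up to 0.00262%, or 0.00322% by the exact interval. These limits cover counting error and hold only if reads of this length can be marked, which was not tested. Over all lengths, from 15 to 32 nt, 7 reads (2.81 to 14.4) of 137899 were marked, or 0.00508% (0.00204 to 0.0105). These were 3 distinct sequences out of 4192, and all of them lay in a single stretch of 20 nt. A read of 23 to 30 nt is longer than this stretch. Of 54 minus-strand reads longer than the stretch that held all of it, 0 were marked. For such reads the count of 0 went with their length, so the sampling limits do not apply to them. The marked sequences are shown because they are all that the table marks, under match settings that are not known, and capitals are the bases inside the 20-nt stretch, 5′ to 3′, from the minus strand of X on dm6:
Marked sequence 1: GATGAACGTCGTGGAAGAC
Marked sequence 2: TGATGAACGTCGTGGAAGA
Marked sequence 3: TGATGAACGTCGTGGAAGAC

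The first of them, of 19 nt, had 3 reads at chrX:22275950-22275968. The second, also of 19 nt, had 2 reads at chrX:22275951-22275969, and the third, of 20 nt, had 2 reads at chrX:22275950-22275969. Each was listed with 23 genomic hits. The 19 unmarked minus-strand sequences that hold a marked sequence with at least 1 more base had 22 hits each. Among the unmarked ones, those longer by 1 base and the most abundant one of piRNA length are given next because they bound the stretch on both sides. They were chosen after their values were seen, and lower-case letters are bases beyond the stretch:
Unmarked, longer at the 3′ end: GATGAACGTCGTGGAAGACg
Unmarked, longer at the 5′ end: tTGATGAACGTCGTGGAAGA
Unmarked, whole stretch and 3′ base: TGATGAACGTCGTGGAAGACg
Unmarked, 5′ base and whole stretch: tTGATGAACGTCGTGGAAGAC
Unmarked, 24 nt: TGATGAACGTCGTGGAAGACgcga

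A base more at either end thus went with the loss of the mark. These 4 sequences had 2, 3, 2 and 3 reads, in the order shown, and the sequence of 24 nt had 21 reads (13 to 32.1). In all, 14 minus-strand sequences longer than the stretch held all of it, with 54 reads (40.6 to 70.5), and 0 of these reads were marked. On the plus strand, 7 sequences with 9 reads held its complement, also with 0 marked. The table held 3 sequences that lie wholly within the stretch on either strand, and they were the marked ones.

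Plus-strand reads that overlapped this stretch by at least 1 base were far more abundant than the marked reads, which lie wholly within it. Among reads longer than the stretch that held all of it, the minus strand had more, with 54 reads against 9 on the plus strand. Over the 20-nt stretch the listed positions held 11330 plus-strand reads (11122 to 11541) in 252 sequences and 104 minus-strand reads (85.0 to 126.0) in 33 sequences. Plus-strand reads made up 99.1% (98.9 to 99.3). The sequence with most reads there is shown to place it against the marked ones, with the 9 bases inside the stretch in capitals:
Plus strand, 25 nt: tgattaaagccttcgcGTCTTCCAC

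It had 3613 reads (3496 to 3733) at chrX:22275934-22275958, 22 genomic hits and no vasa mark. Plus-strand reads of 23 to 30 nt over the stretch started with T in 86.6% (85.9 to 87.2) and had A at base 10 in 6.64% (6.17 to 7.13). For the 74 minus-strand reads of that length the values were 62.2% (50.1 to 73.2) and 9.46% (3.89 to 18.5). A first T is usual for primary piRNAs, and A at base 10 for their ping-pong partners. Of the marked reads themselves, 4 of 7 started with T and 0 of 7 had A at base 10. Plus-strand reads whose 5′ end overlapped that of a marked sequence by 10 nt, the spacing of a ping-pong pair, numbered 62, and over overlaps of 1 to 20 nt this count ran from 0 to 1158, with the highest at 6 nt. The marked sequences do not all share a 5′ end, so a plus-strand read can be counted at neighbouring overlaps. Each sequence has 1 listed position among its hits, so reads listed at other copies are missing from these sums. The table does not say which strand of vasa the marked sequences match.

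**Figure D1:**
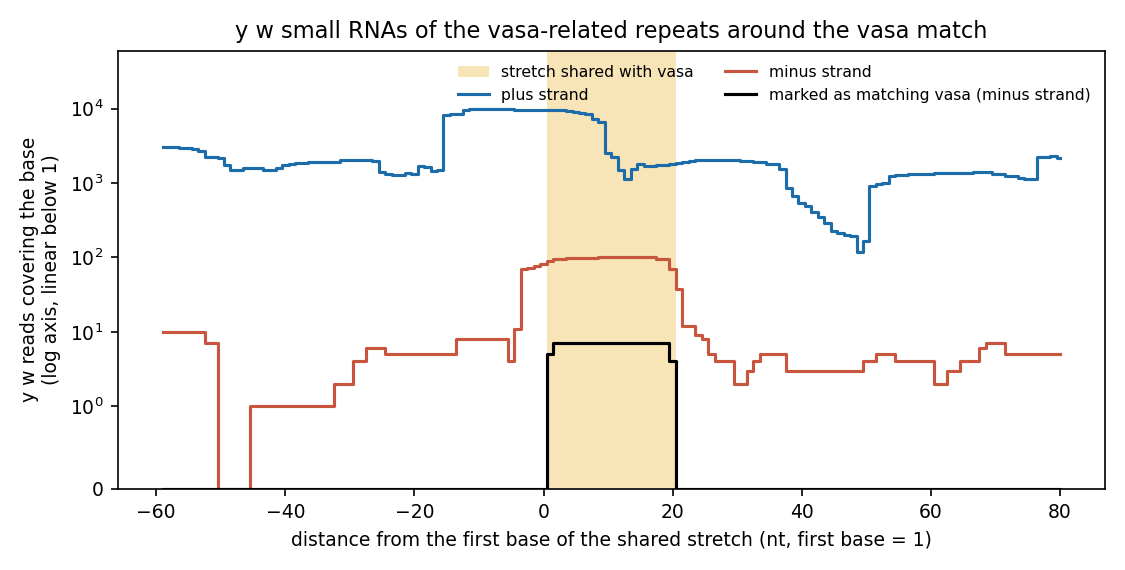
Number of y w small RNA reads (log axis, linear below 1) over each base, against distance in nt from the first base of the 20-nt stretch shared with vasa (shaded), at listed positions. Plus-strand reads cover the stretch with 1138 to 9528 reads a base and minus-strand reads with 70 to 101, while at most 7 reads a base are marked as matching vasa.

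Small RNAs of the other 3 libraries were counted on the vasa exons of each species. On D. mauritiana exons, antisense reads outnumbered sense reads in every library, though D. mauritiana had only 16 against 8. Its antisense share was 66.7% (44.7 to 84.4), an interval that does not exclude equal numbers. Nearly all of the antisense reads fell in 1 class. That class, called the outside class here, matches D. mauritiana vasa and a D. melanogaster locus outside vasa, but neither D. melanogaster vasa nor another place in the D. mauritiana genome. Its antisense reads numbered 6865 in Hmr1, 337 for the hybrid and 16 for D. mauritiana. The class says where a sequence matches and not where it was made. In D. mauritiana, its 16 reads matched nothing in that species' own genome but vasa. The D. mauritiana library also held 1 sense read that matched D. melanogaster vasa alone, against 244 in Hmr1. Where the 16 reads came from was not tested. As deposited, with no scaling for depth, Hmr1 was highest and D. mauritiana lowest, and the counting intervals of the 3 libraries did not overlap. Per transposon read, the hybrid had 0.123 times (0.110 to 0.137) the reads of Hmr1 and 15.9 times (9.67 to 28.2) those of D. mauritiana. In RNA from whole testes, fewer cells that make such RNAs and fewer of these RNAs per cell cannot be told apart.

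The outside class was almost wholly antisense, with few sense reads. It held 99 sense reads (80.5 to 120.5) in Hmr1, whereas the hybrid had 3 (0.619 to 8.77) and D. mauritiana had 0. Antisense reads therefore made up 98.6% (98.3 to 98.8) of the class in Hmr1 and 99.1% (97.4 to 99.8) in the hybrid, and D. mauritiana had 16 of 16 reads (79.4 to 100%). The odds of antisense to sense within the class were 1.62 times those of Hmr1 in the hybrid, with an interval of 0.534 to 8.03 that includes 1. The class took 99.4% (99.2 to 99.6) of antisense and 72.3% (64.0 to 79.6) of sense reads on these exons in Hmr1, against 98.0% (95.9 to 99.2) and 10.3% (2.19 to 27.4) in the hybrid.

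**Figure D2:**
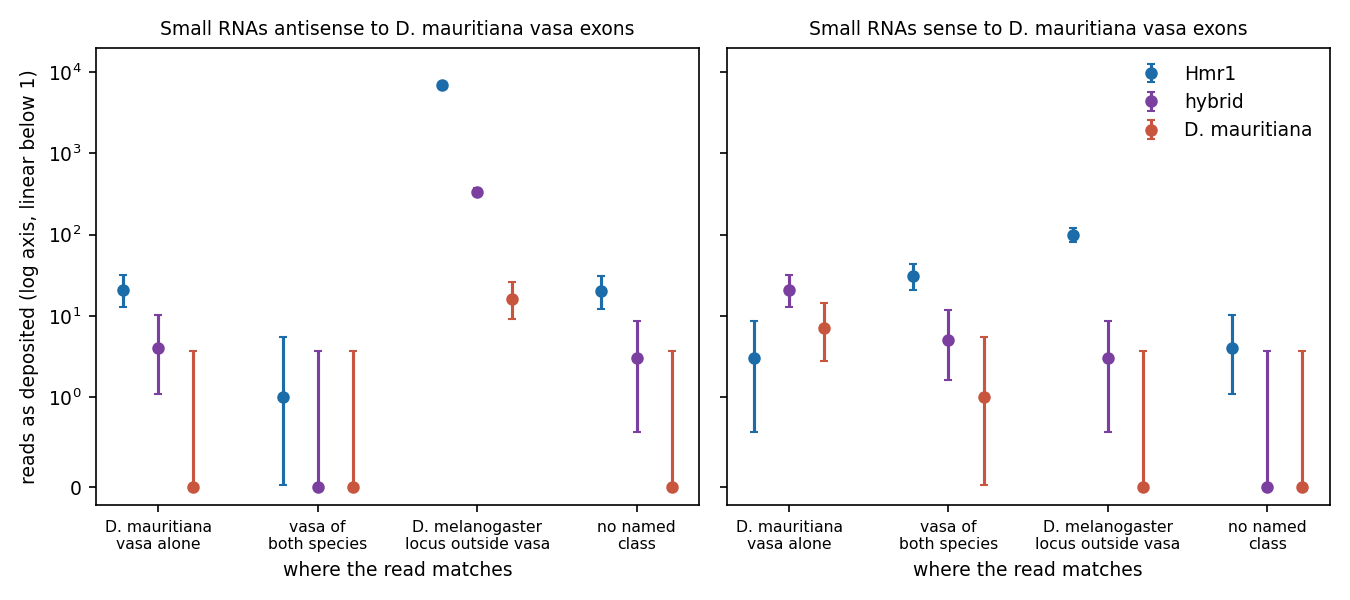
Reads as deposited (log axis, linear below 1) on D. mauritiana vasa exons in the small RNA libraries of Hmr1, the hybrid and D. mauritiana, by the places a read matches, antisense at left and sense at right, with exact 95% Poisson intervals and 1 library per group. The class that also matches a D. melanogaster locus outside vasa stands apart on the antisense side, with 6865, 337 and 16 reads, while the other classes hold at most 31 reads on either side.

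Without the outside class few reads were left, and the excess of antisense reads was smaller or absent. In Hmr1, 42 antisense reads (30.3 to 56.8) remained beside 38 sense reads (26.9 to 52.2). Of these, 52.5% (41.0 to 63.8) were antisense, against 98.1% with all reads. By class, reads of D. mauritiana vasa alone were 87.5% antisense (67.6 to 97.3) and reads of no named class 83.3% (62.6 to 95.3). Reads of both species were 31 sense and 1 antisense. In the hybrid, 7 antisense reads (2.81 to 14.4) remained beside 26 sense reads (17.0 to 38.1), so 21.2% (8.98 to 38.9) were antisense, against 92.2% with all reads. In D. mauritiana, 0 antisense reads remained beside 8 sense reads. With the same working limit of 3 reads the share could be up to 37.5%, or 36.9% by the exact interval. The hybrid had lower odds of antisense reads than Hmr1 in what was left, at 0.247 times (0.0808 to 0.669). The sense reads left differed in kind, which this value does not adjust for. In Hmr1, 31 of them matched the vasa of both species and 3 D. mauritiana vasa alone, against 5 and 21 in the hybrid.

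**Figure D3:**
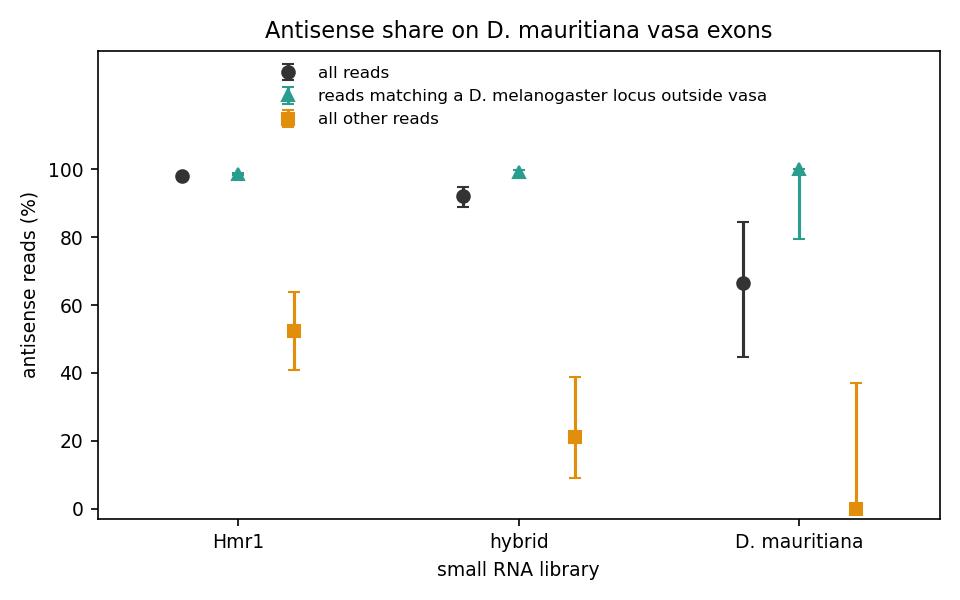
Antisense share in percent of small RNA reads on D. mauritiana vasa exons in Hmr1, the hybrid and D. mauritiana, with exact 95% intervals, for all reads, for reads that also match a D. melanogaster locus outside vasa, and for all other reads. That class is at 98.6% or more antisense in each library, whereas the other reads are at 52.5%, 21.2% and 0%.

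Reads of D. mauritiana vasa alone, which match nothing else in either genome, were mostly sense in the hybrid. It had 21 sense reads (13 to 32.1) and 4 antisense reads (1.09 to 10.2). D. mauritiana had 7 sense reads (2.81 to 14.4) and 0 antisense reads. The Hmr1 library, of pure D. melanogaster, had 3 sense reads (0.619 to 8.77) and 21 antisense reads (13 to 32.1) of this class, although it matches no D. melanogaster sequence. A further 4 sense and 20 antisense reads of Hmr1, and 3 antisense reads of the hybrid, fell in no class that the table names.

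On D. melanogaster vasa exons the small RNAs were mostly sense, and few in the hybrid. Hmr1 had 285 sense reads (253 to 320), of which 244 matched that gene alone and 31 the vasa of both species. The hybrid had 15 sense reads (8.40 to 24.7), of which 10 matched that gene alone and 5 both. D. mauritiana had 2 sense reads in all, where the table gives 1 for that gene alone and 2 for both, so its parts exceed their total. Antisense reads were 12 (6.20 to 21.0), 3 (0.619 to 8.77) and 0, and the table does not split them by class.

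Sense reads of D. melanogaster vasa and antisense reads of the outside class were both far fewer in the hybrid than in Hmr1. For reads of D. melanogaster vasa alone the ratio of hybrid to Hmr1 was 0.0410 (0.0194 to 0.0767) as deposited and 0.103 (0.0487 to 0.192) per transposon read. For the antisense outside class the ratio was 0.0491 (0.0439 to 0.0548) as deposited and 0.123 (0.110 to 0.137) per transposon read. Within a library, where depth plays no part, there were 28.1 (24.8 to 32.1) antisense outside reads for each sense read of D. melanogaster vasa in Hmr1, and in the hybrid there were 33.7 (18.1 to 70.9). The ratio of these values was 1.198, with an interval of 0.632 to 2.55 that includes 1. Sense reads of D. mauritiana vasa alone were 3 times (1.23 to 8.35) as many in the hybrid as in D. mauritiana as deposited, and 2.27 times (0.930 to 6.32) per transposon read.

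The vasa mRNA was counted from RNA-seq, where sense reads of the gene were found in all 3 genotypes. Hmr1 had 83 sense reads (66.1 to 102.9) of D. melanogaster vasa alone, 0 of D. mauritiana vasa alone and 1 of both. D. mauritiana had 113 (93.1 to 135.9) of its own vasa alone, 0 of the other and 4 of both. The hybrid had 20 (12.2 to 30.9) of D. melanogaster vasa alone, 8 (3.45 to 15.8) of D. mauritiana vasa alone and 2 of both, so transcripts of both species were seen. The table's own remark denies D. melanogaster vasa mRNA in the hybrid, against its count of 20. The deposited counts of the hybrid were 0.241 times (0.140 to 0.396) those of Hmr1 for the D. melanogaster gene and 0.0708 times (0.0298 to 0.144) those of D. mauritiana for the other gene. These ratios are not levels, since the totals of the RNA-seq libraries were not used here.

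Within the hybrid, D. mauritiana vasa made up a larger share of the counted sense small RNA reads than of the RNA-seq reads. Reads of D. mauritiana vasa were 8 of 28 RNA-seq reads of a single species, or 28.6% (13.2 to 48.7), and 21 of 31 sense small RNA reads, or 67.7% (48.6 to 83.3). The odds of D. mauritiana to D. melanogaster reads were 5.09 times (1.52 to 18.6) as high among small RNAs, an interval that lies above 1 and to which library depth makes no difference. Per RNA-seq read, the hybrid had 2.63 sense small RNA reads (1.12 to 6.85) of D. mauritiana vasa and 0.500 (0.209 to 1.12) of D. melanogaster vasa. In the parents the order was the other way, with 2.94 (2.28 to 3.82) for D. melanogaster vasa in Hmr1 and 0.0619 (0.0244 to 0.132) for D. mauritiana vasa in D. mauritiana, although depth enters that comparison. In small RNAs of Hmr1, 3 of 247 sense reads of a single species, or 1.21% (0.251 to 3.51), were of D. mauritiana vasa, which gives the share measured in a library without that gene. These odds rest on 31 small RNA and 28 RNA-seq reads. Whether small RNA and RNA-seq reads are equally likely to be assigned to a single species was not tested.

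**Figure D4:**
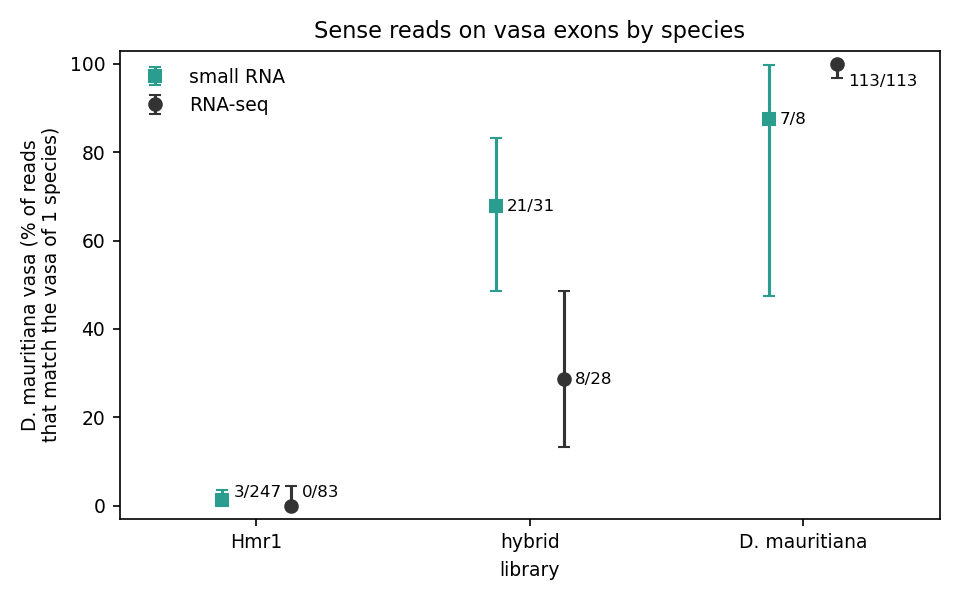
Share in percent of D. mauritiana vasa among sense reads that match the vasa of a single species, in the small RNA (squares) and RNA-seq (circles) libraries of Hmr1, the hybrid and D. mauritiana, with exact 95% intervals and the reads behind each share. In the hybrid the small RNA share of 67.7% lies above the RNA-seq share of 28.6%, with intervals that barely overlap; the D. mauritiana small RNA point uses the row of the table whose parts exceed their total.

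Antisense RNA-seq reads of vasa were few. Hmr1 had 9 (4.12 to 17.1) beside 84 sense reads on D. melanogaster exons, or 9.68% (4.52 to 17.6). D. mauritiana had 5 (1.62 to 11.7) beside 117 sense reads on its own exons, or 4.10% (1.34 to 9.31), and these matched D. mauritiana vasa alone. The hybrid had 0 antisense reads beside 22 sense reads on D. melanogaster exons and 10 on D. mauritiana exons. With the working limit of 3 reads the shares could be up to 13.6% and 30%, or 15.4% and 30.8% by the exact intervals. The few vasa reads of the hybrid therefore did not allow a difference from either parent to be seen. In none of the 3 RNA-seq libraries did a read, sense or antisense, fall in the outside class. On D. mauritiana exons the counts were 0 of 1, 0 of 10 and 0 of 122 reads in Hmr1, the hybrid and D. mauritiana. For Hmr1 that is a single read, and whether RNA-seq reads could meet the terms of the class was not tested.

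Across the 3 libraries, the repeats of the transposon table whose pattern lay nearest to the small RNAs antisense to D. mauritiana vasa were TC1-2_DM, NOMAD_LTR and ROO_LTR, out of 165 repeats with at least 100 reads in a library. Likeness was the distance between the log2 ratios of hybrid to Hmr1 and of hybrid to D. mauritiana, per transposon read. The vasa antisense reads had log2 ratios of -2.998 and 3.94, with 6907 reads of Hmr1, 344 of the hybrid and 16 of D. mauritiana. TC1-2_DM, a Tc1-mariner DNA transposon, had -2.50 and 2.82 at a distance of 1.23, with 395 reads of Hmr1, 27 of the hybrid and 2 of D. mauritiana. NOMAD_LTR had -2.34 and 2.65 at a distance of 1.45, and ROO_LTR had -1.01 and 4.15 at a distance of 1.99. These are likenesses over 3 libraries that share their totals. The transposon table listed 0 sequences within the vasa gene and held 0 of the y w repeat sequences.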

How the data were processed

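The authors deposited unscaled read counts, per the file headers and the values. The submitters' processing notes name cutadapt 1.8.1, Bowtie 1.2.2, Bowtie 0.12.7 and build dm6, and the settings and mismatches allowed are not given in the sources used here. Small RNAs of 19 to 29 nt were cut from gels (titles give 18 nt as the lower limit), per the labels' protocols. In the vasa table the authors gave each read a code for its matches to vasa and to other loci of both species, per the file headers, and reads of no named class are the total less the named classes. The y w table has a line of column totals, which was left out, and 82 columns of per-sample values were not used. Counts have exact Poisson intervals, shares exact Clopper-Pearson intervals, ratios conditional binomial intervals and odds ratios conditional exact intervals, at 95% (Python 3.11.15, scipy 1.17.1). No source used here names molecular identifiers, so reads may be copies of a molecule and intervals cover counting error only. Log2 ratios used a pseudocount of 1 read. The search for repeats of like pattern was tested on simulated data. The gene, lists and sequences shown were chosen with earlier results of these data known. The rule for named sequences asked for marked sequences of 23 to 30 nt, of which there were 0, so all marked sequences are shown. The vasa sequences of both species were not used here.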

Additional observations from a re-analysis of the deposited data

How the results depend on the processing

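The ratio of hybrid to Hmr1 for small RNAs antisense to D. mauritiana vasa exons was 0.0498 as deposited, 0.125 per transposon read, 0.167 (0.0632 to 0.374) without reads that match a locus outside vasa and, an alternative added after seeing the data, 0.190 (0.0475 to 0.565) for reads of D. mauritiana vasa alone. Per transposon read these last values were 0.418 (0.158 to 0.939) and 0.477 (0.119 to 1.42), and the last interval includes 1. The ratio to D. mauritiana was 21.5 as deposited and 16.3 per transposon read, and rested on 16 reads of D. mauritiana. It had no value in the other settings, where D. mauritiana had 0 reads. The antisense share on D. mauritiana exons depended on the outside class: without it the share was 52.5% in Hmr1, 21.2% in the hybrid and 0% in D. mauritiana, and for reads of D. mauritiana vasa alone it was 87.5%, 16.0% and 0%. On D. melanogaster exons the alternative was not run because the antisense reads are not split by class. In RNA-seq, reads of both species counted as D. melanogaster gave a D. mauritiana share of 96.6% in D. mauritiana, and the hybrid share ran from 26.7% to 33.3%. The y w share was 0% at 23 to 30 nt and 0.00508% at all lengths; first bases of marked reads had no value at 23 to 30 nt, nor had the share without the most abundant marked sequence. No paired analysis was possible because each group held 1 library. The low counts of the hybrid limit what can be told of its vasa reads.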
